A study of Homo sapiens with 6 samples.

Results

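In 786-O cells, an established human clear cell renal carcinoma line, knockdown of YB1 lowered the mRNA of 6 of 10 AP-1 and immediate-early factors and raised that of FOSL1, where 6.93% of all tested genes were called lower, 18.7% higher and 25.7% either way. JUNB and FOS fell most, by 27.9% and 24.7%, whereas FOSL1 was 40.3% higher. The 10 genes were taken by symbol from the deposited expression table of 20030 genes and were FOS, FOSB, FOSL1, FOSL2, JUN, JUNB, JUND, EGR1, IER2 and MAFF. The study compared 3 libraries of cells with a stable lentiviral shRNA against YB1 (shYB1) with 3 libraries of cells carrying a nonsense, scrambled shRNA (vector). All 6 libraries came from cells at passages 16 to 18, harvested after puromycin selection. The labels give a single shYB1 line, whereas the series text speaks of several hairpins, and no label says that replicates came from separate cultures, so p-values measure only the spread between these libraries, which may be technical.

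AP-1 is a dimer of basic leucine zipper proteins. A JUN protein (JUN, JUNB or JUND) pairs with another JUN protein or with a FOS protein (FOS, FOSB, FOSL1 or FOSL2), and the pair binds a short DNA element in the promoters and enhancers of genes for proliferation, invasion and inflammation. Many of these genes, together with EGR1 and IER2, are immediate-early genes, whose transcription rises within minutes of growth factor or stress signals without new protein synthesis. MAFF is a small MAF protein of the same zipper class that lacks a transactivation domain. The comparison addresses whether this layer of transcription factors changed when YB1, a DNA- and RNA-binding protein linked to metastasis and drug resistance, was depleted.

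Promoter stretches of 4 of the factors are shown because these genes fell with YB1 knockdown or, for JUND, lay near the threshold, and because the letters of known response elements can be read in them. They are from RefSeq on GRCh38.p14, run 5′ to 3′ on the gene's strand and end before the transcript. JUNB is given for chr19:12791236-12791485 (plus strand), FOS for chr14:75278578-75278773 (plus strand), EGR1 for chr5:138465229-138465478 (plus strand) and JUND for chr19:18281623-18281872 (minus strand). Capitals mark, where present on either strand, CCAAT (the Y-box core, for which YB1 is named) and the CArG box (bound by serum response factor). They also mark TGACG and TGACGTCA (the core and the full form of the cyclic AMP response element) on either strand, and TATAAA on the gene's strand only.
JUNB: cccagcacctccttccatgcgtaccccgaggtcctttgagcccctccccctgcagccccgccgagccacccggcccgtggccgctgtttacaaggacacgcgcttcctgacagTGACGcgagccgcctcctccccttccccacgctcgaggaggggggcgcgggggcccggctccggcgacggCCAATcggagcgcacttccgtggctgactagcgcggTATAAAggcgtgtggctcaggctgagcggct
FOS: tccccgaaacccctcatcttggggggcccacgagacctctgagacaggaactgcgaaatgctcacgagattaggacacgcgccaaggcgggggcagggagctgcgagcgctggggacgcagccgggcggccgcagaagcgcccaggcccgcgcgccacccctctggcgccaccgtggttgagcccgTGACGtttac
EGR1: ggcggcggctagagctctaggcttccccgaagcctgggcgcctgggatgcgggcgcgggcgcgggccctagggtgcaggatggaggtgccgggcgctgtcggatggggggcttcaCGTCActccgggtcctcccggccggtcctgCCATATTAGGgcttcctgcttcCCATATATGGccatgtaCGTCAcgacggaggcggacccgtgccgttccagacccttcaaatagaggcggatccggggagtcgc
JUND: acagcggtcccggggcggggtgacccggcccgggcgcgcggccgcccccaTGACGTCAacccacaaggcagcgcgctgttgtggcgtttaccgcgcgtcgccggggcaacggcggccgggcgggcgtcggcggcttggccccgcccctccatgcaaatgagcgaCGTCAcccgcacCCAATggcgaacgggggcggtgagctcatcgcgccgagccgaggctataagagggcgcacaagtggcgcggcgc

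Windows from 250 bases before to 50 bases after the start were held for 9 of the 10 genes, all except FOSL1, with 2 windows for MAFF. TGACG, which also matches within TGACGTCA, was found on one of the strands in all 9 genes, against 24.5% of the 34943 promoters of the same length. The full TGACGTCA was found in JUND and MAFF, against 1.84% of promoters. CCAAT or its complement ATTGG was found in 4 of the 9 genes, JUN, JUNB, JUND and MAFF, against 34.6% of promoters. All 3 JUN genes thus held it, and FOS, FOSB, FOSL2, EGR1 and IER2 did not hold these letters in this window. The windows of JUN and FOSL2, and that of MAFF with the matches, lie inside the GENCODE genes placed below. The CCAAT of JUN therefore falls within its single-exon GENCODE transcript and not upstream of it. Within these windows the CArG box was found only in EGR1, which held it at −105 and −83 from the start, against 1.3% of promoters. Bases further upstream were not searched, so the other genes may hold CArG boxes there. TGANTCA, the AP-1 element itself, was found only in FOSL2, where it begins at base 5 from the RefSeq start, against 7.72% of promoters. TATAAA, sought on the gene's strand only, was found in FOS, FOSB and JUNB, first bases at −33, −30 and −31, against 7.35% of promoters. That of FOS lies past the end of the stretch printed, which stops where the GENCODE transcript begins, upstream of the RefSeq start. A match is a description of letters and not of binding, which was not measured in these libraries.

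The authors deposited FPKM, the fragments of a gene scaled to transcript length and to the mapped fragments of the library. This unit allows a rough comparison of levels between genes, since other traits of a gene, such as GC content, are not scaled for. FPKM hold no counts, so the absolute depth is unknown. For genes under 0.08 FPKM in every library, FPKM ratios to shYB1 replicate 1 gave relative depths of about 0.975 to 1.09. Only ratios close to 1 were kept, so a large difference in depth could not have shown. YBX1, the targeted gene, had 366.5, 372.8 and 377.9 FPKM in vector libraries and 166.7, 165.9 and 173.3 FPKM in shYB1 libraries, so every library matched its label. The renal markers PAX8, PAX2, EPAS1, KRT8 and KRT18 were present in every library, with PAX8 between 75.6 and 78.7 FPKM, and only NDUFA4L2 of 10 such markers averaged under 1 FPKM. Of the other 9, CDH6 and NNMT were lower in shYB1 cells (log2 fold change −0.54 and −0.37, limma adjusted p = 3.92e-06 and 8.95e-05), PAX2 was higher (0.15, limma adjusted p = 0.0392), and 6 did not pass, whereas 4 were lower and 0 higher when each library was divided by its median ratio to the geometric mean over libraries (median-of-ratios scaling). The endothelial and fibroblast marker lists summed to 0.322 to 0.475 and 2.53 to 2.97 FPKM per library, and CD3E and CDH5 were listed at 0 throughout. The leukocyte list summed to 25.5 to 28.1 FPKM in vector and 22.3 to 23.9 FPKM in shYB1 libraries, most of it CD68, with PTPRC at or near 0. CD68 itself, a lysosomal protein, had a log2 fold change of −0.16 (limma adjusted p = 0.00969), and its part in the results that follow was not tested. Some heat shock genes respond to stress of the culture. Of 9 tested heat shock genes, 5 were called higher and 0 lower (limma adjusted p under 0.05), against 18.7% and 6.93% of all tested genes. After median-of-ratios scaling 4 of the list were higher and 1 lower, against 11.2% and 12.2% of all tested genes. FPKM of the heat shock list summed to 1016 to 1089 in vector and 1095 to 1189 in shYB1 libraries, and the part of these genes was likewise not tested.

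All 10 factors were expressed far above the limit for testing, a mean of 1 FPKM over the 6 libraries. Their means over the 6 libraries ranged from 22.2 to 591.5 FPKM, and 4 of them, JUNB, JUN, IER2 and EGR1, were among the 100 highest genes of the vector cells. In vector cells the order of mean levels was JUNB, JUN, IER2, EGR1, FOS, JUND, FOSL1, FOSB, FOSL2 and MAFF, and no neighbours in this order overlapped between libraries. In shYB1 cells JUN stood above JUNB and the rest of the order was the same, again with no overlap between neighbours. Replicates lay close together, with coefficients of variation from 0.385% to 7.34% (n = 3 in each group), and the largest was that of JUND in vector cells.

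**Figure D1:**
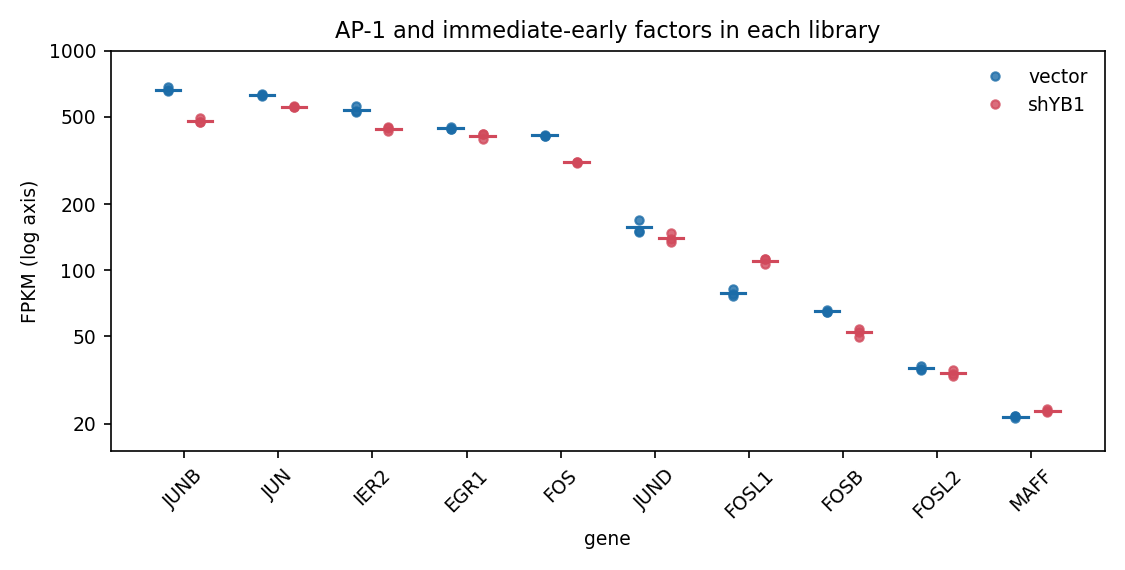
FPKM on a log axis for each of the 10 factors, with 1 point per library (3 vector, 3 shYB1) and a bar at the mean. The groups are separate for every factor, JUNB drops below JUN in shYB1 cells, and FOSL1 is the factor with the clear rise.

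Log2(FPKM + 0.1) was compared between the groups with limma over the 10439 genes that passed the limit, with Benjamini-Hochberg adjustment over all of them. At an adjusted p under 0.05 by limma, 6 of the 10 factors were lower in shYB1 cells, against 6.93% of all tested genes called lower. FOSL1 alone of the 10 was called higher, against 18.7% of all tested genes, and calls in either direction made up 25.7%. With median-of-ratios scaling, which brought the median log2 fold change of all tested genes to −0.00057, 8 factors were lower and 1 higher, against 12.2% and 11.2% of all tested genes and 23.4% in either direction. Calls were more frequent among highly expressed genes: of the 2099 tested genes with a mean at least as high as that of MAFF, 14.0% were called lower, 27.9% higher and 41.8% either way. The groups did not overlap in 10 of 10 factors, against 42.6% of tested genes. Changes were small, and 0 of 10 reached the fold change of 2 that the methods of the study set. Of all tested genes, 0.22% did so with an unadjusted limma p under 0.05. The median log2 fold change of the factors was −0.17, beside 0.055 for all genes tested, and 8 of 10 were below 0 against 35.9% of tested genes. For any single factor, complete separation gave p = 0.1 by a two-sided exact permutation test, the smallest p that 3 libraries against 3 allow.

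Among the JUN genes, each a single exon, JUNB had the largest fold change. JUNB (chromosome 19 of GRCh38, 12791496 to 12793315, plus strand) encodes a JUN protein that often restrains growth-promoting JUN activity. Its FPKM were 659.3, 653.0 and 685.6 in vector libraries and 475.0, 471.8 and 493.9 in shYB1 libraries. The means were 666 ± 17.3 and 480 ± 11.9 FPKM (SD, n = 3 each), and the gap between the groups, 159 FPKM, was many times the spread within them. The log2 fold change was −0.47 (standard error 0.033, limma adjusted p = 9.07e-06), and only 112 of the 10439 tested genes had a lower one. JUNB overlaps HOOK2 on the opposite strand, and the strand setting of the libraries is not given in the sources used here. HOOK2 had 3.46 to 4.51 FPKM, far below JUNB.

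JUN (chromosome 1, 58780788 to 58784327, minus strand) is the founding AP-1 subunit and strongest activator of the family. It had 621.7, 634.6 and 627.1 FPKM in vector libraries and 553.4, 554.7 and 557.6 FPKM in shYB1 libraries. It therefore fell less than JUNB, by 11.6%, but with very little spread in either group. The log2 fold change was −0.18 (standard error 0.028, limma adjusted p = 0.00159). JUND (chromosome 19, 18279760 to 18281622, minus strand) is the subunit that is present at steady levels in most resting cells. Its values were 150.5, 149.7 and 170.0 FPKM in vector and 134.5, 139.4 and 147.4 FPKM in shYB1 libraries. The groups were separated by only 2.26 FPKM, and vector replicate 3 stood above the other two. JUND had a log2 fold change of −0.16 (95% confidence interval −0.28 to −0.037) and did not pass by limma (adjusted p = 0.0568). After median-of-ratios scaling it passed with −0.21 (limma adjusted p = 0.0136), and it passed in a limma fit blocked on replicate number (adjusted p = 0.00517), where 7 factors were lower and 1 higher against 7.28% and 19.9% of all tested genes (27.1% either way). Without vector replicate 3 its log2 fold change was −0.097 (limma adjusted p = 0.0966).

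Of the FOS genes, FOS and FOSB fell together. FOS (chromosome 14, 75278774 to 75282230, plus strand), the prototype immediate-early gene, had 410.0, 409.9 and 414.1 FPKM in vector libraries and 306.8, 311.8 and 310.5 FPKM in shYB1 libraries. The replicates varied by under 1% of their mean in both groups, and about 98.2 FPKM lay between the groups. The log2 fold change of FOS was −0.41 (standard error 0.028, limma adjusted p = 7.74e-06). FOSB (chromosome 19, 45467995 to 45475179, plus strand), its close relative with a comparable transactivation domain, had 64.7, 64.7 and 65.7 FPKM in vector and 49.8, 54.2 and 52.2 FPKM in shYB1 libraries. FOSB thus fell by 19.9% (log2 fold change −0.32, standard error 0.037, limma adjusted p = 0.000246). ERCC1, which overlaps FOSB on the opposite strand, had 8.96 to 10.3 FPKM and a log2 fold change of −0.11 (limma adjusted p = 0.149).

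FOSL1 moved the other way. FOSL1 (FRA-1, chromosome 11, 65892049 to 65900573, minus strand) lacks the transactivation domain of FOS and is known in carcinoma cells for its link with invasion. It had 76.04, 77.88 and 82.51 FPKM in vector libraries and 106.4, 112.4 and 112.9 FPKM in shYB1 libraries. Every shYB1 library exceeded every vector library by at least 23.9 FPKM. The log2 fold change was 0.49 (standard error 0.040, limma adjusted p = 2.86e-05), with 142 of the 10439 tested genes above it. Of the 50-base words in FOSL1 transcripts, 2.91% also occur in the pseudogene FOSL1P1. FOSL2 (FRA-2, chromosome 2, 28392448 to 28417312, plus strand), of similar structure, had 35.5, 35.2 and 36.8 FPKM in vector and 33.7, 35.0 and 33.0 FPKM in shYB1 libraries. These values were separated by only 0.188 FPKM, and the log2 fold change of −0.080 (95% confidence interval −0.16 to 0.0036) did not pass by limma (adjusted p = 0.144). With median-of-ratios scaling FOSL2 had −0.14 and passed (limma adjusted p = 0.0204).

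IER2 and EGR1, immediate-early genes outside AP-1, were both lower. IER2 (chromosome 19, 13150415 to 13154908, plus strand), a small nuclear protein induced with FOS by serum, had 525.9, 532.1 and 557.5 FPKM in vector libraries and 430.4, 444.8 and 448.8 FPKM in shYB1 libraries. It fell by 18.0% (log2 fold change −0.29, standard error 0.034, limma adjusted p = 0.000267), with 77.1 FPKM between the groups. An antisense gene, AC011446.2, overlaps IER2. EGR1 (chromosome 5, 138465490 to 138469315, plus strand) is a zinc finger transcription factor driven by serum response factor through CArG boxes such as those printed above. Its FPKM were 441.1, 448.9 and 441.3 in vector and 397.8, 415.7 and 415.5 in shYB1 libraries. EGR1 fell by 7.68%, the smallest of the called changes (log2 fold change −0.12, standard error 0.031, limma adjusted p = 0.0205). The call was lost without vector replicate 1 or 2 or shYB1 replicate 1 or 2, with limma adjusted p from 0.0511 to 0.0926. MAFF (chromosome 22, 38200767 to 38216511, plus strand) had 21.6, 21.1 and 21.7 FPKM in vector and 22.7, 23.4 and 22.7 FPKM in shYB1 libraries, a log2 fold change of 0.097 (95% confidence interval 0.014 to 0.18) that did not pass (limma adjusted p = 0.0821). After median-of-ratios scaling the difference of MAFF was 0.040 (limma adjusted p = 0.456). PLA2G6, on the opposite strand of MAFF, had 1.01 to 1.60 FPKM and fell by 0.52 on the log2 scale (limma adjusted p = 0.00315).

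**Figure D2:**
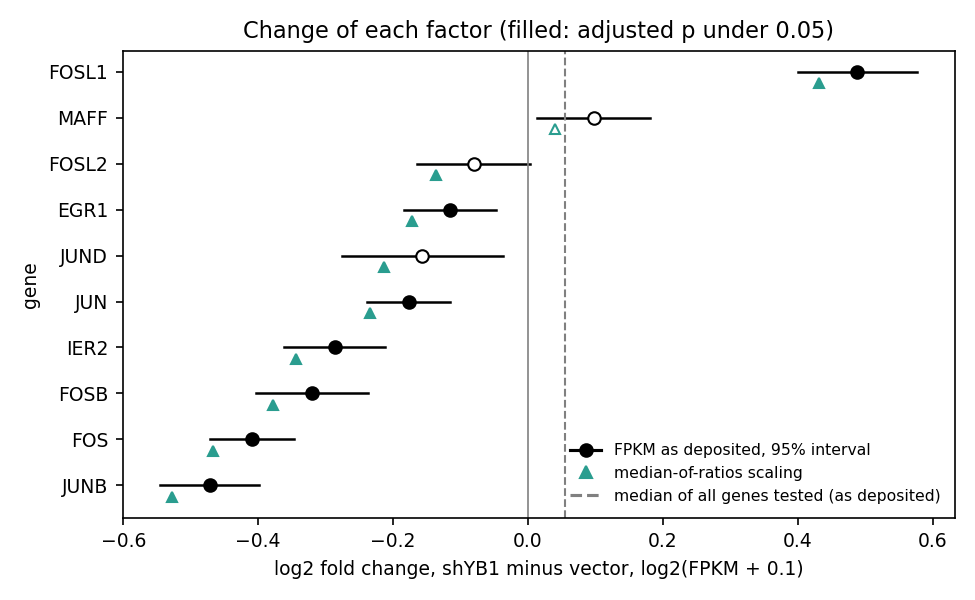
Log2 fold change of shYB1 minus vector for each factor on the log2(FPKM + 0.1) scale, with the 95% confidence interval from limma (circles, FPKM as deposited) and the value after median-of-ratios scaling (triangles). Filled symbols passed an adjusted p under 0.05; JUNB is lowest at −0.47 and FOSL1 highest at 0.49, and the scaling moves every factor down by nearly the same step.

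**Figure D3:**
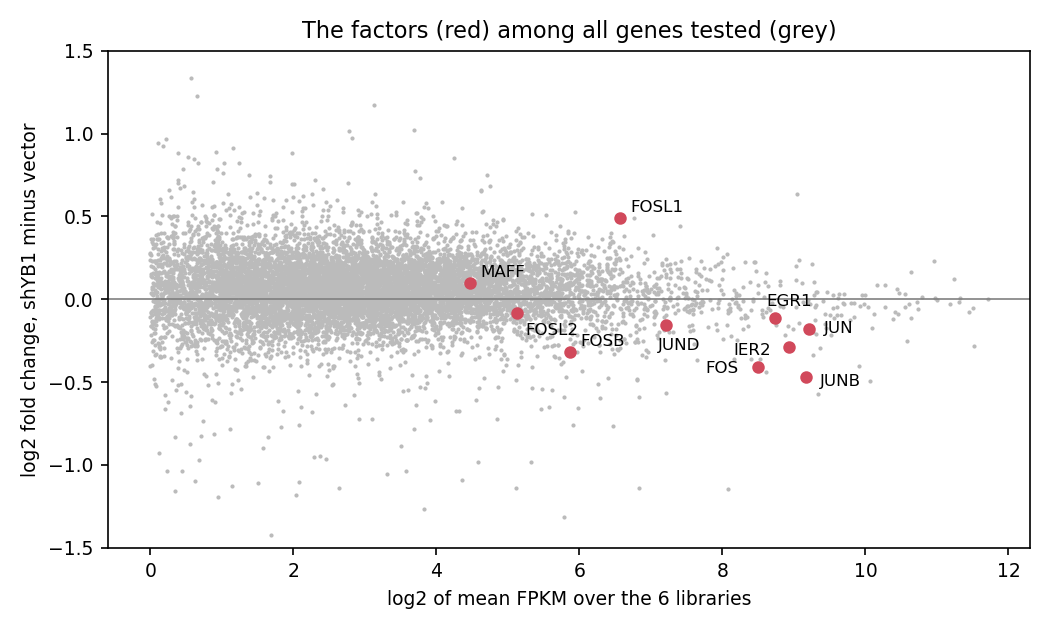
Log2 fold change of shYB1 minus vector against the log2 of the mean FPKM for all 10439 tested genes (grey) and the 10 factors (red), with 3 genes outside the plotted range. JUNB, FOS and IER2 lie under the bulk of highly expressed genes, and FOSL1 lies above it.

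Levels of family members were next related within each library, since such ratios do not change when a whole library is multiplied by a factor. They do change with quantile normalization, which shifts genes by rank, and values after it were added once the data had been seen. Summed over the JUN genes, levels were 1451 ± 28.1 FPKM in vector and 1176 ± 19.9 FPKM in shYB1 (SD, 3 libraries each). JUNB made up 45.9 ± 0.423% of the sum in vector and 40.8 ± 0.363% in shYB1 cells, and JUN 43.3 ± 0.936% and 47.2 ± 0.619%. The share of JUND was 10.8 ± 0.580% in vector and 11.9 ± 0.366% in shYB1 cells. The log2 ratio of JUN to JUNB was below 0 in the vector libraries, at −0.085, −0.041 and −0.13, and above 0 in the shYB1 libraries, at 0.22, 0.23 and 0.18. For JUN to JUND the groups overlapped, with log2 ratios from 1.88 to 2.08 in vector and from 1.92 to 2.04 in shYB1 libraries (p = 0.7 by the exact permutation test, difference −0.020, or 0.032 after quantile normalization).

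The FOS genes summed to 591 ± 7.08 FPKM in vector and 506 ± 8.59 FPKM in shYB1 (SD, 3 libraries each). FOS contributed 69.6 ± 0.426% of the sum in vector cells and 61.2 ± 0.528% in shYB1 cells, whereas FOSL1 contributed 13.3 ± 0.406% and 21.8 ± 0.389%. FOSB and FOSL2 held 11.001% and 6.06% on average in vector and 10.3% and 6.70% in shYB1 cells. The log2 ratio of FOS to FOSL1 was 2.43, 2.39 and 2.33 in vector libraries and 1.53, 1.47 and 1.46 in shYB1 libraries, a difference of −0.90. The ratio of FOSB to FOSL1 differed by −0.81, and that of FOS to FOSB by only −0.089, which turned to 0.0087 with overlapping groups after quantile normalization. Of the 9 ratios between genes of the same family, 8 did not overlap between the groups, all except JUN to JUND. The ratios share genes, so they are not independent. The groups did not overlap in 42.6% of single tested genes, and no such share was computed for ratios of other genes. Each of the 8 had p = 0.1 by the exact permutation test, the smallest this test can give for 3 libraries against 3, and an adjusted p of 0.113 over the 9 ratios, so this test could not call any of them.

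**Figure D4:**
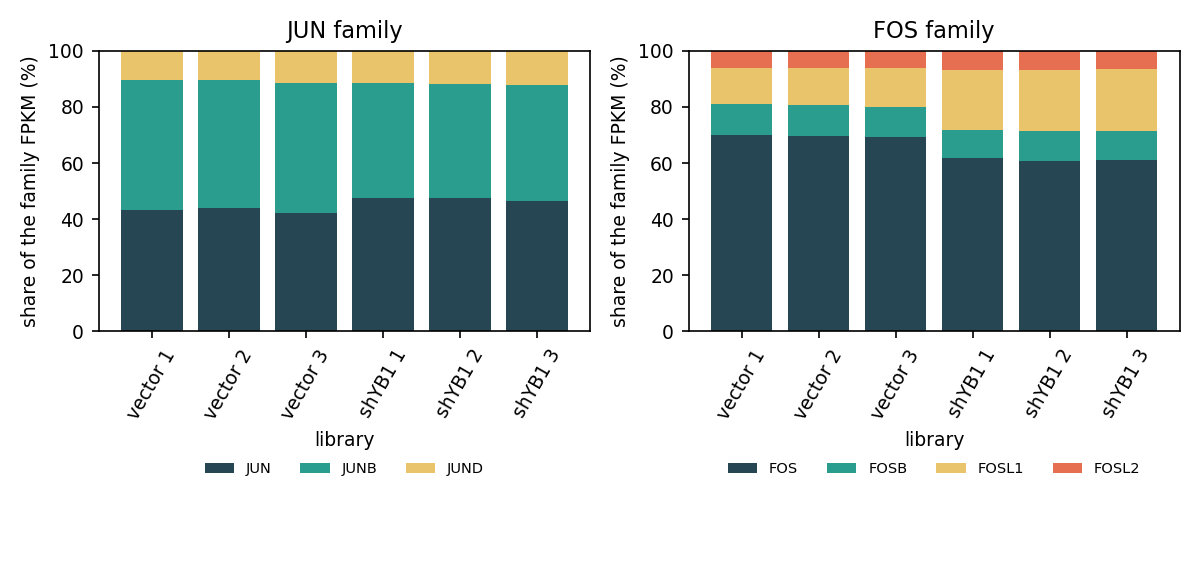
Share in percent of each gene in the summed FPKM of the JUN family (left) and the FOS family (right), with 1 bar per library. FOSL1 grows from about 13.3% to 21.8% of the FOS family as FOS shrinks. In the JUN family the share of JUNB shrinks and those of JUN and JUND grow, although the FPKM of JUN also fell.

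Some features of the genes did not enter their choice. On chromosome 19 lie 4 of the 10, FOSB, JUNB, JUND and IER2, against 6.60% of the tested genes with a transcript. The transcripts of the 10 had a median GC content of 57.6%, beside 49.0% over 10390 tested genes with a transcript in GENCODE, and ranged from 52.6% in FOS to 69.7% in JUND. ATTTA, the core of the AU-rich elements that mark short-lived mRNAs, occurred in 9 of the 10 transcripts, all except IER2, against 79.1% of tested genes, and 5 times in that of FOS. The median was 0.96 occurrences per kilobase, beside 0.99 over the tested genes.

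Other genes of the immediate-early programme were examined from lists drawn up by function, with earlier results of these data known. Of 27 tested genes among 32 other immediate-early genes, 11 were lower, 3 were higher and 13 did not pass (limma adjusted p under 0.05), against 6.93% lower and 18.7% higher among all tested genes. Many genes of this list are highly expressed. Of tested genes with a mean at least as high as that of MAFF, 14.0% were called lower and 27.9% higher. The median log2 fold change of the list was −0.10. ZFP36L1, which speeds decay of AU-rich mRNAs, fell from 323 ± 6.31 to 252 ± 4.08 FPKM (SD, n = 3 each, log2 fold change −0.36, limma adjusted p = 3.66e-05). SGK1, a serum-induced kinase, and IER5, a stress-induced nuclear protein, fell by 0.31 and 0.28 on the log2 scale (limma adjusted p = 0.00351 and 0.00746). CSRNP1, a nuclear protein induced with early genes, rose from 6.90 ± 0.312 to 10.8 ± 0.561 FPKM (log2 fold change 0.64, limma adjusted p = 5.50e-05). KLF4, a zinc finger factor, and PPP1R15A, which directs dephosphorylation of eIF2 alpha, rose by 0.34 and 0.23 on the log2 scale (limma adjusted p = 0.00431 and 0.00176). With median-of-ratios scaling 16 genes of this list were lower and 3 higher, where 12.2% of all tested genes were lower and 11.2% higher.

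The partners of AP-1 with a zipper of the ATF, BATF or MAF type moved in both directions, with 1 lower, 2 higher and 3 not past the threshold of the 6 tested, against 6.93% lower and 18.7% higher among all tested genes. BATF and BATF3 were listed at 0 in all libraries. ATF3, a stress-induced partner of JUN, had 11.2, 10.9 and 12.3 FPKM in vector and 16.5, 18.1 and 16.2 FPKM in shYB1 libraries, with no overlap (log2 fold change 0.56, limma adjusted p = 0.000148). MAFK, a small MAF protein like MAFF, rose from 5.95 ± 0.215 to 7.76 ± 0.176 FPKM (log2 fold change 0.38, limma adjusted p = 0.000812). MAF, a large MAF protein with a transactivation domain, fell from 8.33 ± 0.0955 to 6.49 ± 0.0333 FPKM (log2 fold change −0.35, limma adjusted p = 0.000637).

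Upstream regulators of these genes were listed as MAP kinases and their kinases, serum response factor with its cofactors, CREB1 and ATF1, the EGR corepressors NAB1 and NAB2, and FBXW7, a ubiquitin ligase subunit. Of the 24 tested, 1 was lower, 2 were higher and 21 did not pass, so 12.5% were called against 25.7% of all tested genes. SRF itself had 12.6 to 14.5 FPKM in vector and 13.4 to 15.1 FPKM in shYB1 libraries. MAPK3, which encodes ERK1, fell from 26.2 ± 1.55 to 20.4 ± 0.722 FPKM (log2 fold change −0.36, limma adjusted p = 0.000798). RPS6KA4, a kinase downstream of ERK and p38, rose by 0.33 on the log2 scale (limma adjusted p = 0.0165). ELK3, a partner of SRF, rose by 0.20 (limma adjusted p = 0.0353), but not after median-of-ratios scaling (0.14, limma adjusted p = 0.0974).

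Genes long known to carry AP-1 elements were split in direction. Of 20 tested among 25, 8 were lower, 4 higher and 8 did not pass (limma adjusted p under 0.05). Thus 60% were called, against 25.7% of all tested genes (6.93% lower and 18.7% higher). Many of these genes are highly expressed, and of tested genes with a mean at least as high as that of MAFF, 41.8% were called. The median log2 fold change of the list was 0.081, beside 0.055 for all genes tested. The largest falls were in MMP7, the protease matrilysin, CCL2, a monocyte chemokine, and PTGS2, the inducible cyclooxygenase, with log2 fold changes of −1.31, −1.11 and −0.88 (limma adjusted p = 5.40e-08, 0.000928 and 7.17e-06). HBEGF, a ligand of the EGF receptor, had only 0.822 to 1.04 FPKM in vector and 1.49 to 1.76 FPKM in shYB1 libraries (log2 fold change 0.72, limma adjusted p = 0.00181). CCND1, cyclin D1, rose by 0.18 on the log2 scale (limma adjusted p = 0.00427).

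**Figure D5:**
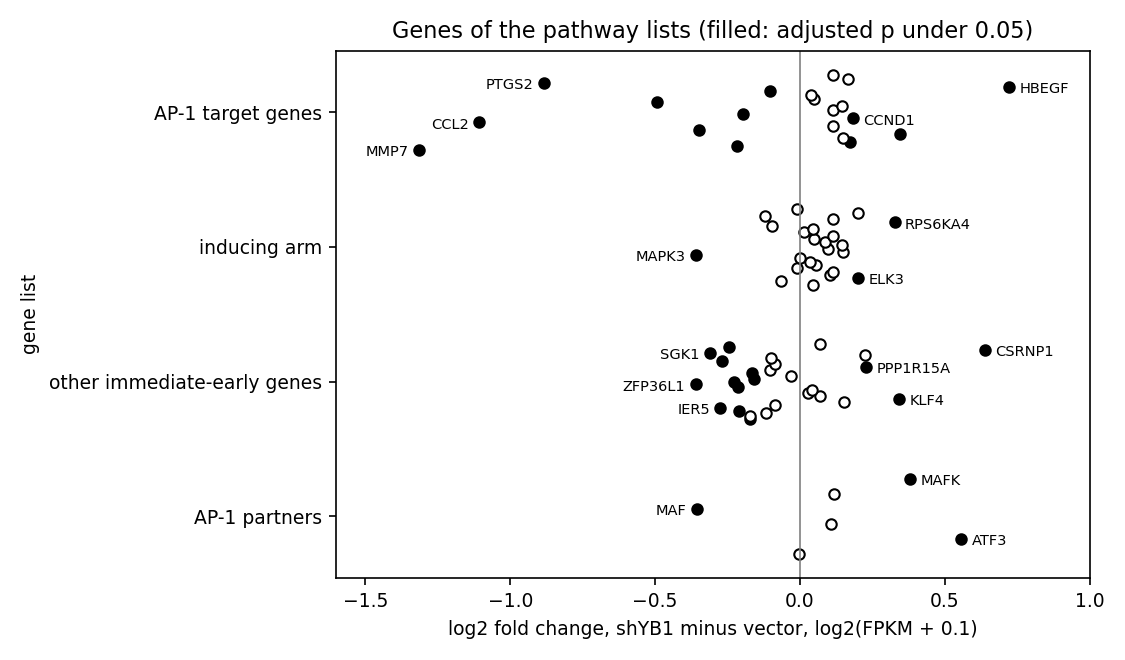
Log2 fold change of shYB1 minus vector for the tested genes of each pathway list, 1 point per gene, spread vertically only for legibility, with the genes described in the text named. Filled points passed an adjusted p under 0.05; AP-1 target genes spread from −1.31 in MMP7 to 0.72 in HBEGF, and most of the upstream regulators (inducing arm) lie near 0.

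For each called factor, the tested gene with the most similar profile over the 6 libraries was found by the Euclidean distance of log2 values centred on their own mean. The nearest genes were ACO1 for FOS (distance 0.024), TSC22D3 for FOSB (0.063), HMGA1 for FOSL1 (0.040), GALNT2 for JUN (0.019), CSF1 for JUNB (0.040), PARP4 for EGR1 (0.026) and SERPINA1 for IER2 (0.042). The median distance from FOS to all other tested genes was 0.602. None of the 7 nearest genes was another of the factors, an outcome likely in advance with 10439 tested genes to choose from. Each was picked for its small distance, which requires a similar fold change, and shared regulation was not tested. HMGA1 rose from a mean of 10.03 to 14.01 FPKM beside FOSL1, and CSF1 fell from 131 to 93.4 FPKM beside JUNB.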

How the data were processed

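RNA of 3 vector and 3 shYB1 libraries was sequenced. The authors deposited FPKM for each library and gene, with GO and KEGG annotation. The submitters' processing notes name Trimmomatic, HISAT2, Cufflinks, HTSeq and DESeq with build GRCh38, without versions or roles. All 6 columns of values were used. Control columns were matched to the vector samples, the only group besides shYB1, by replicate number.

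The 10439 genes averaging 1 FPKM or more were compared on log2(FPKM + 0.1) by limma 3.58.1 in R 4.3.3 (trend and robust variance prior, no block), two-sided, with Benjamini-Hochberg adjustment, called at 0.05. Fold changes on this scale understate changes of low genes. The methods of the study name no test for these data, set limits of 2 on the fold change and 0.05 on P (taken here as unadjusted), and call the 3 samples of a group duplicates. On simulated data (100 genes changed 1.3-fold and 100 changed 2-fold, of 10439) the fit called 69 and 98, and 4 unchanged genes.

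The genes named were the 10 factors, YBX1, up to 3 called genes per direction with the largest change in each of the 4 pathway lists, and the nearest profile of each called factor, except for a gene that is not reported here. HOOK2, ERCC1, PLA2G6, AC011446.2 and the values given for SRF, markers and list members at 0 were chosen after their values were seen. The factors and lists were chosen with earlier results of these data known. Alternatives were pseudocounts of 1 and 0.01, no filter or a mean of 5 FPKM, median-of-ratios, common-total and quantile scaling, a variance prior with no trend, omission of single libraries, a block on replicate number, and that fold criterion, with quantile-normalized ratios added after the data were seen. Gene models were from GENCODE on GRCh38 and promoters from RefSeq. Python 3.11.15 with SciPy 1.17.1 was used for the remaining steps.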

Additional observations from a re-analysis of the deposited data

How the results depend on the processing

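FOS, FOSB, FOSL1, JUN, JUNB and IER2 kept their direction and passed in all 15 alternative fits, with log2 fold changes from −0.47 to −0.35, −0.38 to −0.29, 0.43 to 0.52, −0.23 to −0.14, −0.53 to −0.40 and −0.34 to −0.26. Every factor kept its direction in all 15. EGR1 did not pass by limma after quantile normalization (−0.064, adjusted p = 0.154) or with a prior without trend (−0.12, adjusted p = 0.0864), and passed in 2 of the 6 fits that left out a library, with log2 fold changes from −0.13 to −0.095. JUND passed with a mean of at least 5 FPKM (−0.16), median-of-ratios scaling (−0.21), a common total (−0.16), quantile normalization (−0.17) and the replicate block (−0.16), and in 1 of 6 fits without a library, without shYB1 replicate 3 (range −0.19 to −0.097). FOSL2 passed after median-of-ratios scaling (−0.14) and quantile normalization (−0.12). After quantile normalization, added once the data had been seen, the ratio differences of JUN to JUND (0.032) and FOS to FOSB (0.0087) reversed and the other 7 did not. The cause of these moves was not tested. By the fold criterion of the study, 0 of the 10 factors were called, since none changed by a factor of 2. Deviations of libraries with the same replicate number correlated between −0.169 and −0.00824 over genes. The deviations were centred within groups of 3 libraries, so these values cannot decide whether the numbers pair the libraries. With the replicate block 8 factors were called, with JUND added, which was the only call of a factor it changed. Of all tested genes 723 were lower and 1956 higher as deposited, 1273 and 1171 after median-of-ratios scaling, and 760 and 2074 with the block. Among the upstream regulators 1 gene was lower and 2 higher as deposited, and 3 and 1 after that scaling. Depth is unknown, so counting error could not be given.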
